A study of Mus musculus with 2 samples.

Results

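The miRNA genes Mir335, Mir296, Mir298, Mir483 and Mir675 lie at imprinted loci outside chromosome 12. They were 5 of the 1973 miRNA gene rows in the count tables, and were chosen by their GENCODE symbols and the loci that hold them, not by their counts. Earlier results of these data were known when they were chosen. Mir335 sits in Mest, Mir483 in Igf2 and Mir675 in H19, while Mir296 and Mir298 sit next to each other at the Gnas locus. The data came from microRNA-seq of the facial prominences, the buds of neural crest mesenchyme and covering epithelium that build the face, dissected from healthy embryos of mouse strain B6NCrl at embryonic day 12.5. The labels name 2 biological replicates of this 1 group, with males and females mixed in each: replicate 1 pooled 120 embryos and replicate 2 pooled 88. No second tissue, age or genotype was analysed here, so the text describes levels within the tissue and the gap between the pools. The labels do not say whether the pools shared litters, and any test on reads compares these libraries, not conditions.

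An imprinted gene is read mainly from the copy inherited from 1 parent. Mest, Igf2 and Nespas, the antisense transcript of the Gnas locus, are known as paternally expressed genes, and H19 as a maternally expressed noncoding RNA that shares enhancers with Igf2. A miRNA gene gives a hairpin that Drosha and Dicer cut into mature strands, the 5p and 3p arms, and a mature strand finds target mRNAs mainly by pairing of its seed, here bases 2 to 8. Igf2 is a growth factor of the fetus, Mest is strongly expressed in embryonic mesoderm, and in mouse miR-675 is known to restrain growth of the placenta. Which parental copy gave the reads was not measured.

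The mature strands are shown because their seeds set which mRNAs each gene can reach, and because no seed is shared between the 5 genes. RefSeq (GRCm38.p6) lists 10 mature strands for the 5 genes, all 5 of which matched by symbol. Seeds are in capitals, and each strand is written 5′ to 3′.
miR-335-5p: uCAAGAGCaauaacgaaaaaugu
miR-335-3p: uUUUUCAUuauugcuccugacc
miR-296-5p: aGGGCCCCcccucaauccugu
miR-296-3p: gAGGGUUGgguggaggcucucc
miR-298-5p: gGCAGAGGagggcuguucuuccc
miR-298-3p: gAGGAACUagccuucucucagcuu
miR-483-5p: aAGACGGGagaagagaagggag
miR-483-3p: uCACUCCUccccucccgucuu
miR-675-5p: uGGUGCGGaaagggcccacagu
miR-675-3p: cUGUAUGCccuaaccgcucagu

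The 10 strands carried 10 different seeds, and 0 of these seeds occurred in a mature strand of any other gene in the RefSeq table. Of the 1738 mature strands in that table, from 1058 genes, 32.0% had a seed that also occurred in another gene. Among the 40 pairs of strands from different members, the longest shared stretch was the 7 bases AGGGCCC, at the start of miR-296-5p and from base 11 of miR-675-5p. The arms of miR-483 differed most in base class. Purines made up 95.5% of miR-483-5p and 9.52% of miR-483-3p, against 69.6% of miR-335-5p and 22.7% of miR-335-3p.

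The hairpins of the highest and the lowest member and of Mir483, the member whose level differed most between the pools, show the unit that was counted. Mature arms are in capitals, and the reads of both arms fall on 1 gene, so the tables do not tell which arm gave them.
Mir335: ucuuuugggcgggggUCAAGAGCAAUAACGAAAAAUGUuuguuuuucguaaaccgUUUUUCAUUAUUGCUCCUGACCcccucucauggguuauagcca
Mir483: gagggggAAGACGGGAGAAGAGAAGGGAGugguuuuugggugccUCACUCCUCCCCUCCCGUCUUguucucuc
Mir675: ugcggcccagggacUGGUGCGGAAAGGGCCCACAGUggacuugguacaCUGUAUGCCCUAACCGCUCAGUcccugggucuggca

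All positions are on GRCm38, the assembly that mm10 denotes, and count from 1. Mir335 (ENSMUSG00000065501.1) occupied positions 30741299 to 30741396 of chromosome 6 on the plus strand. It lay 17752 bases past the start of Mest, in an intron of each of the 7 Mest transcripts that span it, out of 11 annotated. Mir483 (ENSMUSG00000070140.1) occupied positions 142654924 to 142654996 of chromosome 7 on the minus strand. It was intronic in all 7 of the 9 Igf2 transcripts that span it, and also in Gm49394, a gene model that overlaps Igf2 on the same strand. Mir675 (ENSMUSG00000076275.1) lay on the same strand at positions 142577064 to 142577147, 77776 bases from Mir483. It overlapped an exon in 3 of the 4 H19 transcripts that span it and an intron in the other, out of 7 annotated.

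Mir298 (ENSMUSG00000065410.1) and Mir296 (ENSMUSG00000065521.1) occupied positions 174267504 to 174267585 and 174267047 to 174267125 of chromosome 2 on the minus strand, with 378 bases between them. The annotation gave neither a host gene on its strand. Nespas runs in the same direction and ends 13651 bases before Mir298, and Gnas runs the other way. No annotated gene overlapped any of the 5 hairpins on the opposite strand. Apart from Mir296 and Mir298 themselves, the 1 listed miRNA gene within 50 kb of a member was Gm27591, 19051 bases from Mir296. It had 0 counts in both libraries, which allows up to 0.636 CPM in replicate 1 and 0.506 CPM in replicate 2 at 3 counts.

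**Figure D1:**
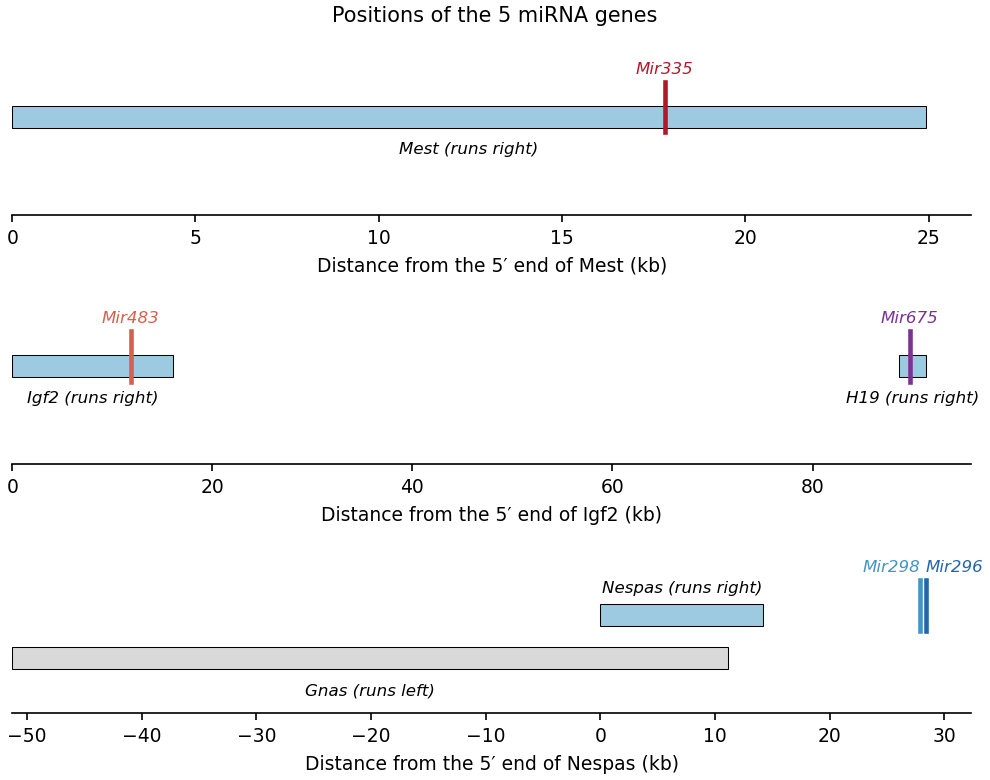
Map of the 3 loci, each drawn to scale as distance in kb from the 5′ end of Mest, Igf2 or Nespas, in the direction of that gene. Blue bars are genes on the members' strand, the grey bar is Gnas on the other strand, and coloured marks (wider than the hairpins) are the miRNA genes. Mir335 and Mir483 lie inside Mest and Igf2, Mir675 lies inside H19, and Mir298 and Mir296 lie past the end of Nespas.

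Levels are in CPM, the reads on a gene's own strand per 1000000 such reads over all gene rows. Reads with several mapping places are in no gene's count, so all levels, ranks and shares leave them out. Own-strand gene reads numbered 4719337 in replicate 1 and 5929220 in replicate 2. Detection required 10 or more such reads in both libraries, and 395 of the 1973 rows met it. All 5 members were detected. Together they held 8.18% of gene reads in replicate 1 (exact 95% Clopper-Pearson interval 8.15 to 8.20) and 8.39% in replicate 2 (8.37 to 8.41), a mean of 8.28% ± 0.152 (SD, n = 2). Intervals cover counting error only. Mir335 gave most of that share: the other 4 genes held 1.48% in replicate 1 and 1.27% in replicate 2.

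Mir335, in the human known to be active in mesenchymal stem cells, had 316147 reads in replicate 1 and 422221 in replicate 2, or 66989.7 and 71210.2 CPM. By these counts, which leave out reads with several mapping places, it ranked first of the 395 detected genes in each library. Genes with copies can lose reads this way, so the rank holds only for the reads counted. The mean of Mir335 was 69100.0 ± 2984 CPM (SD, n = 2). The gene next below it was Mir99a, at 63553 CPM in replicate 1 and 60629.6 CPM in replicate 2. The difference of the means, 7009 CPM, exceeded the SD of either gene, and the order was the same in both pools. Their ratio was not set against the spread between the pools over all detected genes, as is done below for the members. In proportion, the gap was smaller than that of Mir298 over Mir483, which that spread did not tell apart. The first rank of Mir335 is therefore not read as resolved from Mir99a.

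Mir296, which in mouse embryonic stem cells is known to act on Nanog, had 29336 reads in replicate 1 and 39186 in replicate 2. This gave 6216 and 6609 CPM, a mean of 6413 ± 278 CPM (SD, n = 2). It ranked 44 in replicate 1, 39 in replicate 2 and 42 by the mean. Its neighbours in the mean order were Mir181c (6492 ± 714 CPM) above and Mir423 (6320 ± 2605 CPM) below. Neither kept the same order with Mir296 in both libraries, so the 3 genes could not be ranked.

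Mir298, known in mouse neuronal cells to act on the protease mRNA Bace1, had 20122 reads in replicate 1 and 22198 in replicate 2. Its level was 4264 CPM in the first pool and 3744 CPM in the second, a mean of 4004 ± 368 CPM (SD, n = 2) at rank 53. Mir200c, next above at 4533 ± 552 CPM, changed order with it between the libraries. Mir1983, next below at 3874 ± 487 CPM, was lower in both, but by a mean of 130.1 CPM, within the SD of either gene.

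Mir483 had 19727 reads in replicate 1 and 13251 in replicate 2, although replicate 2 was the deeper library. Its levels were 4180.0 CPM in replicate 1 and 2235 CPM in replicate 2, so that its mean of 3207 ± 1375 CPM (SD, n = 2) carries the widest relative error of the 5 genes. It ranked 54 in replicate 1 and 71 in replicate 2. Mir708 (3354 ± 598 CPM) and Mir139 (3198 ± 616 CPM), its neighbours at rank 60 by the mean, both changed order with it.

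Mir675 had 557 reads in replicate 1 and 683 in replicate 2, or 118 and 115 CPM. Its mean was 116.6 ± 2.00 CPM (SD, n = 2), at rank 202 of 395. The exact 95% intervals, 108 to 128 CPM in replicate 1 and 107 to 124 CPM in replicate 2, overlapped. Its neighbours Mir331 (118 ± 4.72 CPM) and Mir495 (114 ± 16.9 CPM) could not be told apart from it, as neither kept the same order in both pools.

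**Figure D2:**
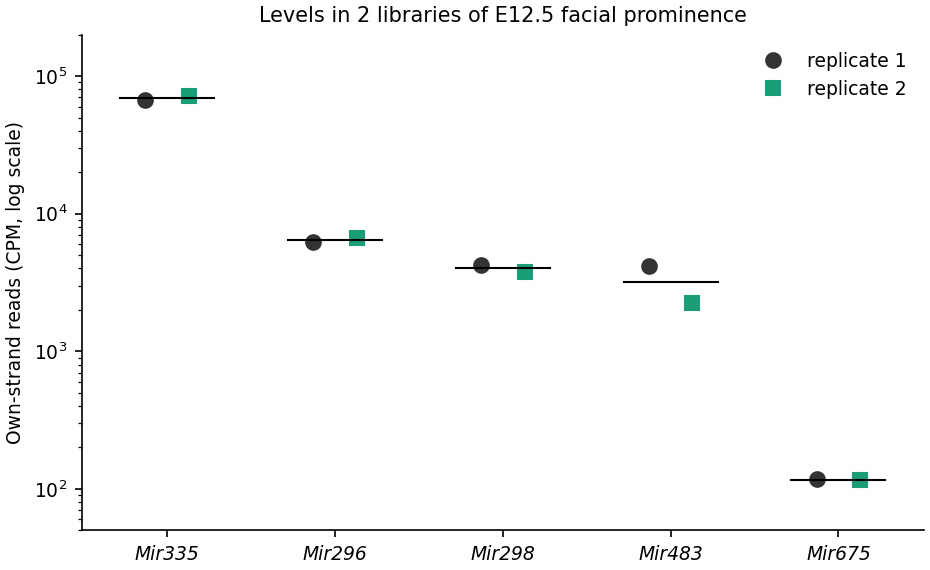
Own-strand reads of each gene in CPM on a log scale. Circles are replicate 1, squares replicate 2 and lines the mean. The order from Mir335 to Mir675 is the same in both libraries, and the symbols of Mir483, at 4180.0 CPM (replicate 1) and 2235 CPM (replicate 2), lie farthest apart.

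The order Mir335, Mir296, Mir298, Mir483, Mir675 held in both libraries. Each step was set against the common biological coefficient of variation of 0.190, the spread between the pools that edgeR estimated over all detected genes. Intervals at that coefficient cover spread between the pools only. Anything that raises or lowers the reads of a gene alike in both pools is not in them. Mir483 varied more than that, with an SD of 1375 CPM on a mean of 3207 CPM, so its intervals can be too narrow. Mir335 stood 10.8-fold above Mir296 (95% interval 7.43 to 15.6 at that coefficient). Mir296 stood 1.60-fold above Mir298 (1.10 to 2.32). Mir298 and Mir483 were not told apart, with a ratio of 1.25 (0.861 to 1.81), and their ratio was 1.02 in replicate 1 and 1.68 in replicate 2. Mir483 stood 27.5-fold above Mir675 (18.96 to 39.9), its neighbour at the shared Igf2 and H19 domain.

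A read of a mature strand does not depend on the length of the hairpin, so levels were not divided by length. Divided by it, the means per 100 bases of hairpin were 70510 CPM for Mir335, 8117 CPM for Mir296, 4883 CPM for Mir298, 4394 CPM for Mir483 and 139 CPM for Mir675, the same order. In replicate 1 alone, Mir483 then stood above Mir298, at 5726 against 5199.7 CPM per 100 bases.

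Sequence shared with other genes, which can hide reads because those with several mapping places (26.0% of reads in replicate 1 and 27.9% in replicate 2) were counted to no gene, was not found for the members. None of the 5 hairpins held a stretch of 20 bases that occurred, on either strand, in another miRNA gene of the tables. The 10 mature strands matched no GENCODE transcript of another gene exactly, except that both miR-675 strands lie in H19, their own host. The genome outside transcripts was not searched. Reads on the opposite strand numbered 2 in replicate 1 and 1 in replicate 2 at Mir335, 0 and 2 at Mir675, and 0 in both libraries at Mir296, Mir298 and Mir483.

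Between the pools, 4 of the 5 members lay within 1.5-fold, as did 341 of the 395 detected genes (86.3%). The ratios below are replicate 1 over replicate 2 on the log2 scale at TMM library sizes, with exact 95% intervals for counting error. Mir335 had a ratio of -0.08 (interval -0.09 to -0.08) and Mir296 of -0.08 (-0.11 to -0.06). For Mir298 the ratio was 0.19 (0.17 to 0.22), and for Mir675 it was 0.04 (-0.12 to 0.20). Mir483 stood apart from these at 0.91 (0.88 to 0.94), or 1.88-fold (1.84 to 1.92). The median absolute log2 ratio was 0.08 over the 5 members and 0.23 over all detected genes. These medians are not at like depth, because counting error widens the ratios of genes with few reads. Of the 5 members, 4 had means of at least 3207 CPM, while the median over all detected genes was 122 CPM. The members are thus not shown to be steadier than other genes.

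By the exact binomial test (two-sided, 1 per gene, Benjamini-Hochberg adjustment at 0.05), which covers counting error alone, 4 of the 5 members differed between the libraries at any size. Over all detected genes 51.9% did, but that share is not from genes of like depth. A call at any size comes more easily with more reads. The 4 called members had means of at least 3207 CPM, against a median of 122 CPM over detected genes. So 4 of 5 is not read as a result about the members. Mir675, with a mean of 116.6 CPM, was the member not called (exact binomial adjusted p = 0.755). With a minimum of 1.5-fold, 1 member was called, Mir483, against a background of 9.62% of detected genes. With the 2-fold minimum set as the main rule, 0 members were called, against 4.05%. The common coefficient of variation was estimated from these same 2 libraries taken as replicates, so a test with it counts their gap as noise, and few calls are built in. With edgeR's exact test at a coefficient of variation of 0.2, or at the common value, 0 members were called, and 0.506% of detected genes were called in either case. Mir483 was the 1 member with an unadjusted p under 0.05 there (edgeR exact test, p = 0.0281 at 0.2 and 0.0206 at the common value, adjusted p = 0.769 and 0.589).

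The absolute ratio of Mir483 ranked 26 of the 395 detected genes. Among the 100 genes with a mean of at least 1000 CPM, a limit chosen after the values were seen, its ratio ranked 2. The ratios of Mir335, Mir296 and Mir298 ranked 72, 71 and 42 among those 100. Beside it, Mir675 had a ratio of 0.04 with an interval that includes 0. The level of Mir483 relative to Mir675 was 35.4 in replicate 1 and 19.4 in replicate 2. The levels of the hosts Igf2 and H19 were not measured.

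**Figure D3:**
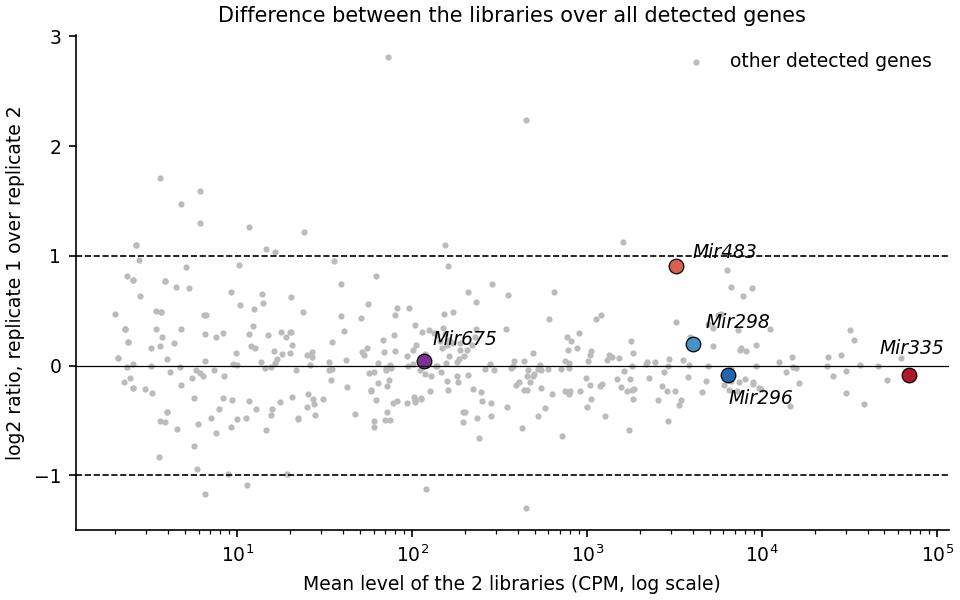
The log2 ratio of replicate 1 over replicate 2 (vertical axis) against the mean level of each of the 395 detected genes in CPM on a log scale. Grey points are the other genes, coloured points the 5 members, and dashed lines mark 2-fold. Mir483 lies at 0.91, just inside the 2-fold line, and the other 4 members lie between -0.08 and 0.19.

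Other imprinted groups of miRNA genes gave a frame for these levels. Of the 5 members 5 were detected, with a median of 4004 CPM and a range from 117 to 69100.0 CPM. Between Dlk1 and Dio3 on chromosome 12, 47 of 59 listed genes were detected, with a median of 393 CPM and a range from 3.19 to 9216 CPM. Inside Sfmbt2, which in mouse holds a large array of near-copies, 9 of 107 listed genes were detected, with a median of 369 CPM and a highest value of 1515 CPM. The median over all 395 detected genes was 122 CPM. The medians describe these libraries and were not tested, and genes of the Sfmbt2 array can lose reads that map to several places.

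By summed reads, the 5 members held 8.28% ± 0.152 of gene reads, the Dlk1 to Dio3 genes 7.58% ± 0.350 and the Sfmbt2 genes 0.469% ± 0.00339 (SD, n = 2 each). Without Mir335, the share of the members was 1.37% ± 0.147. Mir335 alone had 6.70% of gene reads in replicate 1 and 7.12% in replicate 2, near the 7.83% and 7.33% of all genes listed between Dlk1 and Dio3.

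**Figure D4:**
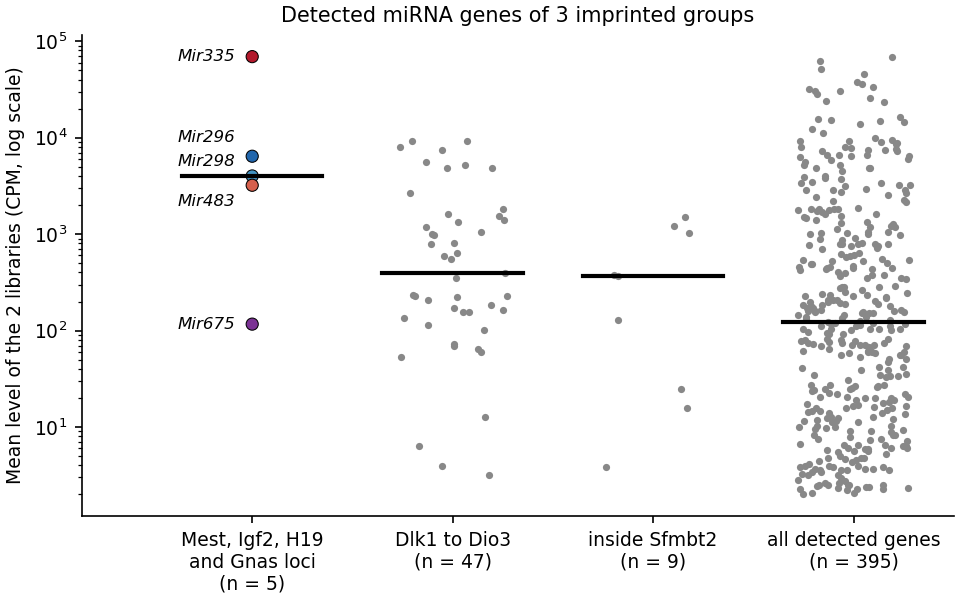
Mean level of each detected miRNA gene in CPM on a log scale, for the 5 members, the genes between Dlk1 and Dio3, the genes inside Sfmbt2 and all 395 detected genes, which include the others. Points are genes, spread sideways for view, and lines are medians of 4004, 393, 369 and 122 CPM. Mir335 lies above every gene of the other imprinted groups, and Mir675 lies near the median of all detected genes. Reads with several mapping places are left out.

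G and C made up 63.3% of the Mir296 hairpin, 63.1% of Mir675, 58.9% of Mir483, 53.7% of Mir298 and 42.9% of Mir335, against a median of 51.2% over the 395 detected hairpins. The member with the highest level thus had the lowest GC share of the 5, but Mir296, next in level, had the highest. Mir675 had a predicted minimum free energy of -56.0 kcal/mol (RNAfold), or -0.67 per base, the value at rank 7 of 395 from the lowest. Mir335 had -44.3 kcal/mol and Mir483 -33.8 kcal/mol, or -0.45 and -0.46 per base, near the median of -0.43. The loop between the arms held from 12 bases in Mir675 to 17 in Mir335 and Mir298. Whether composition or folding affects the counts was not tested.

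The tissue label was checked with miRNA genes known from its cell types. All 4 mesenchymal, 2 cartilage and 7 epithelial genes listed were detected. The mesenchymal genes summed to 47564 CPM in replicate 1 and 48061 CPM in replicate 2, nearly all of it from Mir214. The others on that list were Mir199a-1, Mir199a-2 and Mir199b. Such related genes can lose reads with several mapping places, so their small part is not read as a low level. Mir214 of skeletal mesenchyme averaged 45769.7 ± 198 CPM, Mir140 of cartilage 14833 ± 518 CPM, and the epithelial genes Mir205 and Mir200c averaged 8883 ± 682 and 4533 ± 552 CPM (SD, n = 2 each). The Mir9 and Mir124a genes of the neural list could not serve as a check. They are copies that give the same mature strand, and multiply mapped reads were left out of all gene counts. The list also holds Mir137, which is neither a Mir9 nor a Mir124a gene and had the highest level of the list. The 6 neural genes found summed to 811 CPM in replicate 1 and 796 CPM in replicate 2. Of these, 2 were detected, and Mir124a-1 and Mir9-2 were at 0 in both libraries. The liver gene Mir122 was near 13.8 CPM in replicate 1 and 13.5 CPM in replicate 2, and the 3 erythroid genes summed to 223 CPM in replicate 1 and 331 CPM in replicate 2. These are bulk tissue levels, so fewer cells of a type and less RNA per cell cannot be told apart, for the members as for the markers.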

How the data were processed

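Small RNA of 2 libraries was analysed. The authors deposited raw counts per miRNA gene for each library, with mm10 as the assembly and M4 as the annotation release, as the library descriptions state. Which aligner, counter and trimming were used is not given in the sources used here. Counts come without strand, on 1 strand and on the other, and the 1-strand column held 96.8% and 96.7% of gene reads in replicates 1 and 2, so it was taken as the own strand. Of the 11414919 and 12792420 reads in the 2 tables, 41.3% and 46.3% lay on own strands. Rows for unmapped, multiply mapped and off-gene reads stayed out of library sizes.

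GENCODE M21 on GRCm38 gave symbols and positions for 1894 of 1973 rows. Ratios used TMM factors of 0.998 and 1.002 (edgeR 4.0.16, R 4.3.3), and tests used SciPy 1.17.1. With 1 library against 1, edgeR's quasi-likelihood test could not be fitted. The binomial test was tested on simulated data with counting error only. It recovered 96.5% of 200 genes changed 3-fold and called 0 unchanged genes. The estimate of the common coefficient of variation was tested on simulated counts, and gave 0.193 for a true value of 0.2. The edgeR exact test was not tested in this way. Hairpins were folded with RNAfold 2.7.2. Named besides the members are genes next to them in the level order, miRNA genes within 50 kb or sharing a seed, and tissue marker genes. Members and lists were chosen with earlier results of these data known. Scalings, strands, count minimums, ratio limits and single libraries were varied.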

Additional observations from a re-analysis of the deposited data

How the results depend on the processing

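All 5 members stayed detected with a minimum of 100 counts in both libraries. A minimum of 1 count in both libraries, 10 counts in either library, or reads of both strands also kept all 5. These settings are looser than the main rule, so they could not drop a detected gene. Their summed share was 8.01% with reads of both strands, 3.63% of all reads in the tables and 1.37% without Mir335. It was 8.18% in replicate 1 alone and 8.39% in replicate 2 alone. The order of the genes was kept with reads of both strands, per 100 bases of hairpin and in each library alone. An alternative added after seeing the data, CPM per 100 bases in replicate 1, left 3 of 5 genes in place, with Mir483 above Mir298.

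Of 30 recomputed ratios between the libraries (DESeq2 1.42.0 size factors, plain library sums, both strands, no count minimum, a minimum of 100 counts, scaling without the members), 30 kept their direction and their side of the 2-fold rule. The ratio of Mir483 ranged from 0.89 to 0.95 and that of Mir335 from -0.10 to -0.05. Each setting moved the ratios of all members by nearly the same small amount, so these are not 30 separate checks. The number of members called was 0 under the first 5 of these settings and both edgeR tests, 1 with a minimum ratio of 1.5 and 4 with no minimum ratio. No paired analysis was possible because there is 1 group. With 2 libraries, a gene's SD is itself poorly known, and at Mir675 counting error alone allows a ratio from -0.12 to 0.20.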
